A study of Nothobranchius furzeri with 19 samples.

Results

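The 200 genes described here had their highest level in trunks of *Nothobranchius furzeri* larvae at 3 days post hatching (dph). For each of 26740 annotated genes a level L, the log2 of CPM (the count divided by the library total and scaled to a common total) plus a pseudocount of 1, was averaged over both sexes at 10 days post fertilization (dpf), 0 dph and 3 dph, and taken as 1 value each in adult ovary and testis. At 3 dph, 351 genes had a mean L at least 1 above the highest of the other 4 values, and the 200 with the largest difference are the members. The members were thus chosen by their measured levels, and their level at 3 dph, their share of the counts and their rise from 0 dph are a description with no test. The difference was 6.01 for the gene of rank 1, 1.900 at rank 100, 1.409 for Nfu_g_1_002158 at rank 200 and 1.404 for Nfu_g_1_002569, the first gene left out.

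The counts come from RNA-seq of the inbred strain GRZ, without mutation or treatment. The groups were whole embryos at 10 dpf (3 female, 3 male), trunks at 0 dph (2 female, 3 male), trunks at 3 dph (3 female, 3 male), and 1 ovary and 1 testis at 3 months. The turquoise killifish has an XX/XY system, and the series was made to follow the developing gonads of females and males. In a trunk library the gonad is a small part beside skin, muscle, blood, liver and gut, so fewer cells of a type and less RNA per cell cannot be told apart.

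After hatching, a fish larva replaces the yolk by feeding, its skin becomes layered, its liver secretes plasma proteins, and red blood cells filled with globin take over oxygen transport. Keratins form the intermediate filaments of epidermal cells, and globins are the oxygen carriers of red blood cells. The liver makes albumin-like carriers, protease inhibitors and clotting factors, and it holds much of the sterol and sugar metabolism.

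Of the 26740 identifiers, 2671 (9.99%) are paired with a zebrafish-derived symbol in the sources used here, and 24 of the 200 members (12%) are among these. Of these 24, 13 were named from a table in identifier order and 11 from one ordered by the study's own test between the sexes at 10 dpf, so which members carry a name is not independent of sex at that stage. The other members are given by their identifier, without a role. Total counts were 25600939 to 31493908 at 3 dph and 15563687 to 20218857 in the embryos and 0 dph trunks, so a low-expressed gene was easier to detect at 3 dph. Every member had a mean of at least 50 counts at 3 dph. At 0 dph, 2 members had at most 3 counts in every library, and at 10 dpf 25 did. A panel of 23 eye genes, which should be scarce outside the head, summed to 10.3 to 18.1 CPM in the 3 dph trunks, 8.49 to 16.0 CPM in the 0 dph trunks and 255 to 712 CPM in the whole embryos.

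Some libraries stood apart. Male replicate 1 of 10 dpf was the highest of its 6 libraries for 127 of the 200 members (63.5%, against 26.0% of all genes). Female replicate 2 of 0 dph was the highest of its 5 libraries for 111 members (55.5%, against 21.9% of all genes), with a median L 0.46 above female replicate 1. At 3 dph male replicate 1 was the highest of 6 libraries for 52 members (26.0%, against 9.73% of all genes). For the tests between the sexes, counts or median fold changes are also given with each of these libraries left out. The exception is the 10 dpf fit that used the replicate numbers.

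The members took a large share of the 3 dph libraries. They held 18.6%, 16.8% and 17.8% of the counts in females and 22.8%, 20.8% and 18.8% in males at 3 dph, against 3.81% and 5.6% in females and 2.90%, 2.98% and 3.73% in males at 0 dph. All 6 libraries of 3 dph lay above all 5 of 0 dph, and the 3 males of 3 dph lay above the 3 females. In the embryos the share was 0.752%, 0.536% and 0.407% in females and 2.09%, 0.690% and 0.30% in males. The ovary held 0.139% (Wilson 95% interval 0.1375 to 0.1404, which covers counting error only) and the testis 0.280% (0.2767 to 0.2828).

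**Figure D1:**
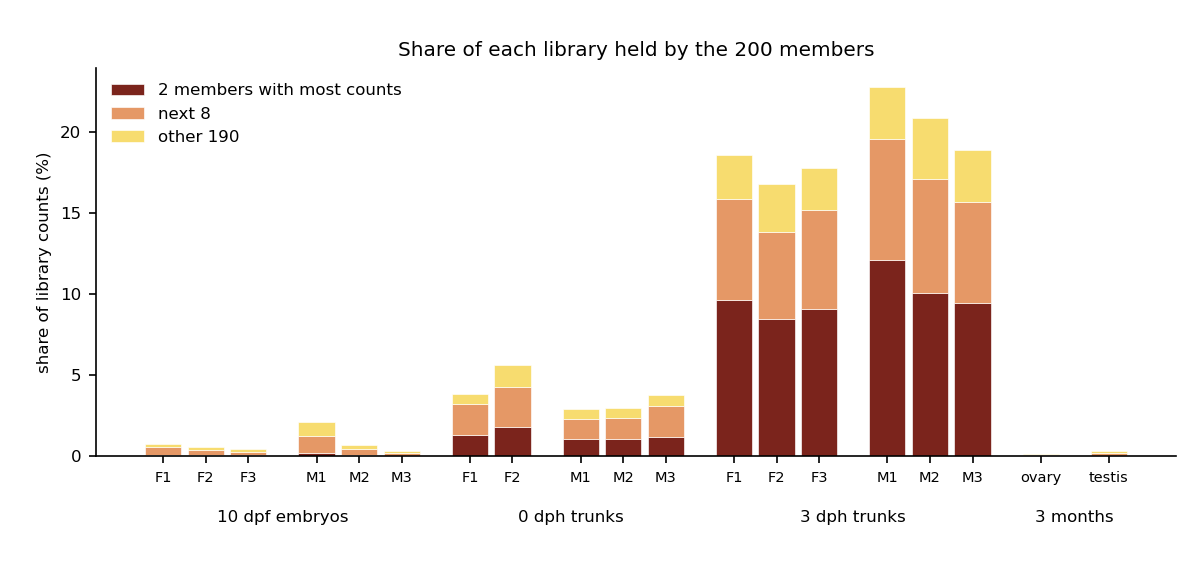
Share of the counts of each library, in percent, held by the 200 members, split into the 2 members with the most counts, the next 8 and the other 190. F and M are female and male libraries with their replicate number; the 6 bars of 3 dph lie between 16.8% and 22.8% and no other bar is above 5.6%.

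A few genes made up most of this share. Nfu_g_1_007612 alone took a mean of 7.62% of the 3 dph counts, Nfu_g_1_007569 took 2.16%, Nfu_g_1_003723 1.78%, Nfu_g_1_023319 1.34% and *krt5* 1.26%. These values are shares of counts and are not corrected for transcript length. The first 2 of them held 50.8% of the members' counts at 3 dph and the first 10 held 84.0%. The other 190 members together held 2.58% to 3.79% of the counts of each 3 dph library and 0.616% to 1.34% of each 0 dph library.

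Nfu_g_1_007612 had 75213, 65989 and 69866 CPM in females and 95144, 78352 and 72871 CPM in males at 3 dph, against 9016 and 13776 CPM in females and 6340, 6933 and 8235 CPM in males at 0 dph. It was at 198 to 1461 CPM in the embryos, 92.9 CPM in ovary and 106 CPM in testis. Its lowest 3 dph library was thus above its highest 0 dph library, and the sexes overlapped at 3 dph. Nfu_g_1_007569 had 18443 to 25532 CPM at 3 dph, 3484 to 4441 CPM at 0 dph and 74.0 to 489 CPM at 10 dpf. Nfu_g_1_023319 had 10535 to 15547 CPM at 3 dph against 819 to 2159 CPM at 0 dph. Nfu_g_1_003723, at rank 196, had 13906 to 21110 CPM at 3 dph and already 4284 to 8890 CPM at 0 dph.

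For most members 0 dph was already above 10 dpf. For 146 of the 200 members the next highest stage was 0 dph, for 20 it was 10 dpf, for 23 the testis and for 11 the ovary. L was higher at 0 dph than at 10 dpf for 177 members, with a median difference of 1.25, against -0.35 over all genes. The rise, the mean L of 3 dph minus that of 0 dph, had a median of 2.01 and ranged from 1.41 to 6.01, against a median of -0.03 over the 25418 genes with a count in the trunks. For 173 members all 6 libraries of 3 dph lay above all 13 others (1.83% of all genes), and for 179 they lay above all 5 of 0 dph (9.21% of all genes); the rule used this contrast, so nothing follows from these counts. With a pseudocount of 10 the median rise was 1.41, and 143 of the 200 members stayed on the list.

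Among the 24 members with a symbol, 3 were globins of the red blood cell list. *hbbe1.1*, an embryonic beta globin in zebrafish, had 858, 658 and 428 CPM in females and 732, 1678 and 729 CPM in males at 3 dph, against 24.7 and 45.5 CPM in females and 18.4, 5.43 and 11.4 CPM in males at 0 dph. It was at rank 3, with a rise of 5.44. The embryonic alpha globin *hbae1* had 561, 455 and 275 CPM in females and 544, 1271 and 521 CPM in males at 3 dph, against 55.2 and 220 CPM in females and 30.4, 11.8 and 29.3 CPM in males at 0 dph. The beta globin *hbbe2* had 1803, 1248 and 1177 CPM in females and 1309, 3462 and 1869 CPM in males at 3 dph, against 154 and 1422 CPM in females and 96.6, 29.2 and 65.6 CPM in males at 0 dph.

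All 3 globins shared an order of libraries that the rule did not use. At 3 dph male replicate 2 was the highest library of each, at 0 dph female replicate 2, and at 10 dpf male replicate 1. For *hbbe2* the embryos were above most 0 dph trunks, with 402, 326 and 312 CPM in females and 2205, 534 and 344 CPM in males, so that its lowest stage before the gonads was 0 dph. In ovary and testis the 3 globins were at 1.28 to 4.01 CPM. Of the 8 identifiers on the red blood cell list, 7 had a higher mean L at 3 dph than at 0 dph, with a median rise of 1.28, and the list summed to 2019 to 6737 CPM at 3 dph against 161 to 1841 CPM at 0 dph. The erythrocyte membrane gene *rh50* and the transferrin receptor *tfr1a* were not members, with a rise of 0.60 and -0.38, nor was a second identifier with the symbol *hbbe1.1*, with 1.08. *ampd3a*, which encodes the AMP deaminase known from human red blood cells, was a member at rank 157 with 8.10 to 10.6 CPM at 3 dph and 1.21 to 3.26 CPM at 0 dph.

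Skin genes were the second group. *krt5* (Nfu_g_1_001437), a keratin of basal epidermal cells, had 11576, 10436 and 12068 CPM in females and 15122, 14908 and 11505 CPM in males at 3 dph, against 5294 and 6373 CPM in females and 1170, 3784 and 4721 CPM in males at 0 dph. The keratin *KRT23* (5 of 15), here Nfu_g_1_017018, had 5222, 5271 and 5716 CPM in females and 6769, 5957 and 5978 CPM in males at 3 dph, against 3012 and 2440 CPM in females and 411, 1649 and 2618 CPM in males at 0 dph. Reads may be shared between near-identical keratin copies, and each of these symbols is carried by a second identifier that is not a member. Of the 12 identifiers on the skin list, 9 had a higher mean L at 3 dph than at 0 dph, with a median rise of 0.76. They include the second *krt5* identifier, Nfu_g_1_000844, with 3317 CPM in ovary, 5.97 CPM in testis and a mean of 604 CPM at 3 dph. Its log2 fold change, female over male, was 9.54 at 3 dph. A copy of *krt18* (-2.11), *eppk1* (-1.80) and *scel* (-0.68) were lower at 3 dph than at 0 dph.

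Several members followed the keratins library by library at 0 dph. Male replicate 1 was low, at 0.275 times the mean of the other males for *krt5* and 0.192 times for *KRT23*, and likewise at 0.243 times for *postnb*, which encodes the matrix protein periostin. The genes *zgc:153704* and *zgc:101810* stood at 0.114 and 0.109 times. Of the liver members, *fabp10a*, *serpina1* and *nr0b2a* stood at 1.18, 0.844 and 1.47 times, but *fbp1a* and *slc25a47a* at 0.413 and 0.564 times. The low library was thus not particular to skin and matrix genes. *postnb* had 464, 579 and 467 CPM in females and 612, 538 and 577 CPM in males at 3 dph, against 214 and 287 CPM in females and 45.8, 182 and 195 CPM in males at 0 dph. *and3*, an actinodin of the zebrafish fin fold, had 222, 219 and 94.2 CPM in females and 147, 32.6 and 107 CPM in males at 3 dph, against 17.7 and 16.7 CPM in females and 4.05, 19.6 and 1.68 CPM in males at 0 dph. It was among the members that varied most within 3 dph, with an SD of L of 1.01. *ecm2*, an extracellular matrix gene, had 23.6 to 42.2 CPM at 3 dph, 1.64 to 4.90 CPM at 0 dph and 2.89 to 16.8 CPM at 10 dpf.

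**Figure D2:**
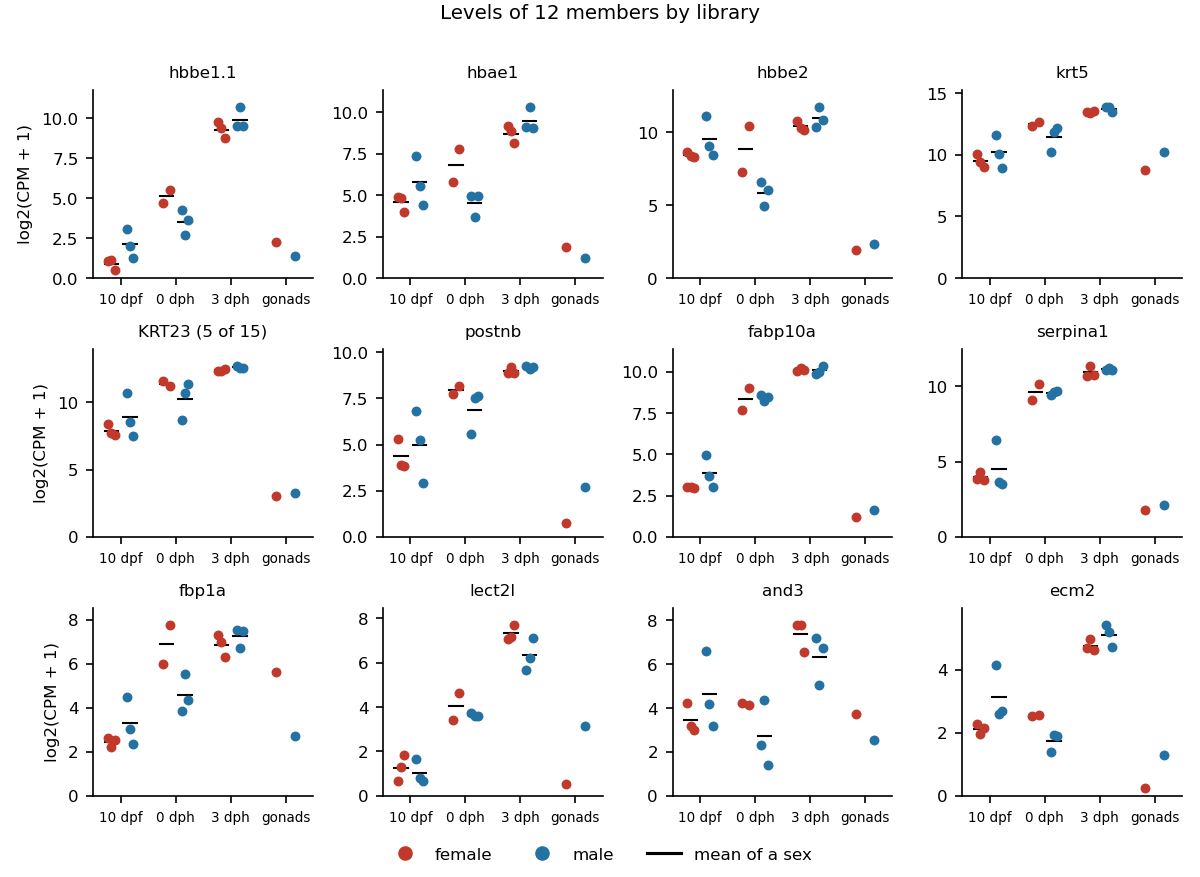
Level, as log2(CPM + 1), of 12 members in every library by stage, with females left of males; black lines are means of a sex. The globins (*hbbe1.1*, *hbae1*, *hbbe2*) differ widely between 0 dph libraries, *krt5*, *KRT23* and *postnb* have 1 low male library at 0 dph, and all 12 are highest on average at 3 dph.

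The liver list gave 5 members. *serpina1*, the secreted protease inhibitor alpha-1-antitrypsin, had 1672, 2655 and 1754 CPM in females and 2194, 2448 and 2208 CPM in males at 3 dph, against 538 and 1146 CPM in females and 690, 792 and 844 CPM in males at 0 dph. *fabp10a*, the liver fatty acid binding protein of fish, had 1039, 1196 and 1117 CPM in females and 942, 1023 and 1318 CPM in males at 3 dph, against 209 and 519 CPM in females and 390, 303 and 357 CPM in males at 0 dph. Both were at most 85.1 CPM at 10 dpf and 3.41 CPM in the gonads. *fbp1a*, an enzyme of gluconeogenesis, had 155, 126 and 78.1 CPM in females and 183, 103 and 179 CPM in males at 3 dph, against 61.6 and 217 CPM in females and 13.2, 44.5 and 19.5 CPM in males at 0 dph. Its female libraries overlapped between the stages, with a rise of -0.01 in females and 2.67 in males.

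The remaining liver members were low. *nr0b2a*, the nuclear receptor SHP that restrains bile acid synthesis, had 5.12 to 21.9 CPM at 3 dph and 0.757 to 5.66 CPM at 0 dph. *slc25a47a*, a mitochondrial carrier of the liver, had 1.89 to 6.72 CPM at 3 dph and 0.216 to 0.841 CPM at 0 dph. Of the 24 identifiers on the liver list, 20 had a higher mean L at 3 dph than at 0 dph, with a median rise of 0.88, and the list summed to 4230 to 6080 CPM at 3 dph against 1996 to 3662 CPM at 0 dph. Non-members among them included the fibrinogen chain *fgb* with a rise of 0.99, prothrombin *f2* with 0.88 and the urea cycle enzyme *cps1* with 1.25. The liver regulator *hnf4a* went the other way, with a mean of 33.1 CPM at 3 dph against 397 CPM at 0 dph.

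Other lists gave few members. *lect2l*, a relative of the chemotactic plasma protein LECT2, had 135, 143 and 210 CPM in females and 50.4, 72.7 and 140 CPM in males at 3 dph, against 9.72 and 24.2 CPM in females and 12.5, 11.1 and 11.1 CPM in males at 0 dph. It was the only member among the 22 identifiers of the immunity list, of which 17 had a higher mean L at 3 dph. *MEP1B* (1 of 2), the beta subunit of the metalloprotease meprin of gut and kidney, was the only member among 29 identifiers of the gut list, whose median rise was -0.42. *SBK2*, a kinase gene, was the only member among 22 muscle genes, with a median rise of 0.09. *fdps*, farnesyl diphosphate synthase of the sterol pathway, was the only member among 10 genes of lipid and sterol synthesis, with a median rise of -0.40. No member was on the eye list or among the 7 germ cell genes.

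The symbol-bearing members not on a list were also higher at 3 dph. The zinc finger gene *znf648* had 29.7 to 42.9 CPM at 3 dph and 7.10 to 14.3 CPM at 0 dph. *nmt1a*, an N-myristoyltransferase gene, had 14.7 to 49.9 CPM at 3 dph, 0.595 to 6.10 CPM at 0 dph and 3.64 to 9.51 CPM at 10 dpf. *zgc:92630* had 44.5 to 67.5 CPM at 3 dph and 16.0 to 29.2 CPM at 0 dph, and *si:dkeyp-80c12.8* had 9.68 to 28.7 CPM and 0.114 to 2.82 CPM.

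Among the 10 members of highest rank, most had no symbol, and several were low at 0 dph. Nfu_g_1_014763 and Nfu_g_1_014761, at ranks 2 and 8, had 69.0, 37.3 and 43.9 CPM and 68.6, 34.0 and 48.1 CPM in females and 119, 42.5 and 179 CPM and 105, 39.3 and 251 CPM in males at 3 dph. At 0 dph they had at most 1.03 and 3.57 CPM. The pair shared the same order of male libraries at 3 dph. Nfu_g_1_018957 had 25.3 to 60.0 CPM at 3 dph and 0.0572 to 0.750 CPM at 0 dph. Nfu_g_1_012083 had 109 to 302 CPM at 3 dph and 0.649 to 9.20 CPM at 0 dph, and Nfu_g_1_006903 had 34.3 to 69.7 CPM and 0.154 to 3.36 CPM. These 5 genes did not pass the test between the sexes at 3 dph.

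The rule set the gonad levels of every member below its 3 dph level, so the low levels found here describe the list only. The ovary and the testis each held at most 3 counts of 29 members, and the ovary did so for 46 and the testis for 55. For 34 members the next highest level was in a gonad, which does not make that level high. The 23 with the testis next together held 0.00615% of the testis counts, and the 11 with the ovary next 0.0127% of the ovary counts. Among the latter was *fbp1a* with 47.9 CPM in ovary and 5.55 CPM in testis. *krt5* had 434 CPM in ovary and 1210 CPM in testis. With 1 library each, these values have no replicate check.

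Differences between the sexes were then tested at each stage, since at these stages the rule used means over both sexes. The rule also used the ovary and the testis as single values, so a gene high in either gonad could not be a member. At 0 dph the rule's mean took in 2 females and 3 males, so a gene low in males there was more easily a member. The later test of whether the rise differs between the sexes also uses the 0 and 3 dph levels that chose the members. The counts by sex and by rise are thus not fully independent of the rule, and the size of these effects was not tested. Differentially expressed genes (DEGs) are those with a DESeq2 adjusted p under 0.05 over all genes, and fold changes are female over male. At 3 dph, 33 of the 200 members (16.5%) were DEGs, against 18.9% of all genes tested. Of these, 5 were female-higher, against 13.7% of all genes, and 28 were male-higher, against 5.19% of all genes. This lean was not particular to the members. The 200 genes ranked in the same way for 0 dph had 0 female-higher and 82 male-higher DEGs at 3 dph. Those ranked for 10 dpf had 0 and 3, with 150 tested. Members had a median log2 fold change of -0.25, all genes one of -0.08. For 7 members all females lay above all males and for 35 all males lay above all females, against 23.0% and 10.9% of all genes. edgeR called 1 female-higher and 16 male-higher members, all among the 33, against 15.6% and 3.45% of all genes (19% in either direction). Without female replicate 1 there were 2 female-higher and 16 male-higher members, against 10.3% and 2.18% of all genes. Without female replicate 3 there were 1 and 27, against 10.1% and 2.49%, and without male replicate 2 there were 3 and 32, against 13.2% and 6.57%. Without male replicate 1 there were 6 and 32, against 12.8% and 3.34%. The median log2 fold change was then -0.16 for members and -0.05 for all genes. In 1 fit over all 17 embryo and trunk libraries, 0 members were female-higher and 13 male-higher, against 7.38% and 2.81% of all genes.

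The sex difference at 3 dph was not called for the most abundant members. The 10 members with the most counts had 0 DEGs, although all 10 had a log2 fold change below 0, from -0.35 to -0.14. For Nfu_g_1_007612 it was -0.27 ± 0.18 (SE, adjusted p = 0.326) and for *krt5* -0.32 ± 0.19 (adjusted p = 0.229). Among the 134 members with a mean under 100 CPM, 5 were female-higher (3.73%) and 19 male-higher (14.2%). Among the 66 at or above 100 CPM, 0 were female-higher and 9 male-higher (13.6%). Over all genes the shares were 13.7% and 5.19%. Germ cell genes, which are not members, differed by sex in the same libraries, with 6 of 6 tested female-higher at 3 dph and a sum over the 7 genes of 144 to 164 CPM in females and 11.3 to 19.1 CPM in males. Their part in the members' values was not tested.

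The gene of rank 1 had the smallest adjusted p among the male-higher members. Nfu_g_1_020514 had 84.7 to 111 CPM in the 3 females and 539, 317 and 425 CPM in the 3 males at 3 dph. All males lay above all females, with a log2 fold change of -2.17 ± 0.24 (adjusted p = 3.63e-17), and its adjusted p stayed at or below 8.2e-12 with each library left out. At 0 dph it had 1.20 and 13.7 CPM in females and 1.23, 0.289 and 2.43 CPM in males. Nfu_g_1_014399 had 25.8, 28.0 and 21.1 CPM in females and 49.4, 48.6 and 46.5 CPM in males, a log2 fold change of -1.0 ± 0.14 (adjusted p = 5e-12). Nfu_g_1_022789 had 9.54, 16.2 and 9.22 CPM in females and 43.0, 25.8 and 34.5 CPM in males (-1.65 ± 0.26, adjusted p = 6.14e-09). Nfu_g_1_026263 had 7.21, 6.39 and 4.46 CPM in females and 25.9, 8.70 and 22.8 CPM in males (-1.75 ± 0.37, adjusted p = 3.1e-05). The sexes did not overlap in any of these 4 genes.

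Some liver genes were also male-higher. *nr0b2a* had 8.05, 5.12 and 5.16 CPM in females and 21.9, 9.65 and 19.4 CPM in males at 3 dph (log2 fold change -1.53 ± 0.33, adjusted p = 6.35e-05). *slc25a47a* had 2.75, 1.89 and 2.08 CPM in females and 4.60, 3.75 and 6.72 CPM in males (-1.20 ± 0.30, adjusted p = 0.000957). The abundant liver members did not pass the test, with -0.01 ± 0.15 for *fabp10a* and -0.23 ± 0.16 for *serpina1*. Over the 24 liver genes, 1 was female-higher and 3 male-higher, the third being *hnf4a*, and the list summed to 4230 to 6080 CPM in females and 5068 to 5302 CPM in males. *SBK2* was male-higher with 7.28, 10.6 and 9.25 CPM in females and 18.5, 13.8 and 14.1 CPM in males (-0.84 ± 0.22, adjusted p = 0.00178). *zgc:92630* (-0.44, adjusted p = 0.0226), *znf648* (-0.31, adjusted p = 0.0479) and Nfu_g_1_012744 (-0.46, adjusted p = 0.0423) were male-higher by less. *zgc:92630* and Nfu_g_1_012744 lost the call when some libraries were left out, and *znf648* lost it with any library left out.

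**Figure D3:**
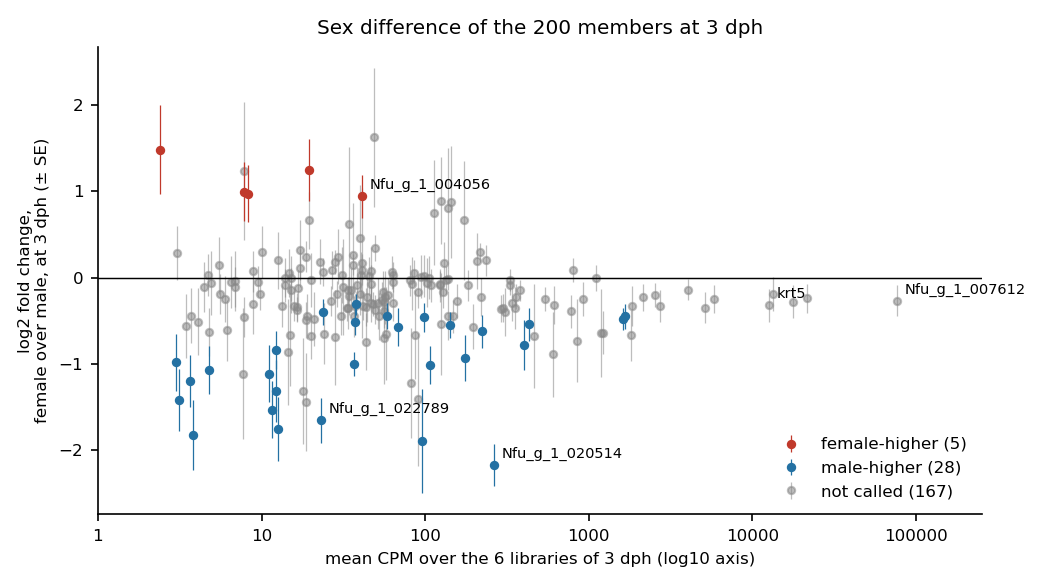
Log2 fold change, female over male, of the 200 members at 3 dph with its standard error, against mean CPM on a log10 axis. The 5 female-higher members all have a mean under 100 CPM, the 28 male-higher members spread over the lower and middle range, and the 10 members with the most counts lie just below 0 without a call.

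The 5 female-higher members were low in count. Nfu_g_1_004056 had 46.4, 54.2 and 63.0 CPM in females and 34.4, 20.7 and 27.1 CPM in males at 3 dph (log2 fold change 0.94, adjusted p = 0.00143), and it was the only member female-higher at both 3 and 0 dph. At 3 dph it was also the only one of the 5 that edgeR called and that kept its call with each library left out. At 0 dph edgeR did not call it (adjusted p = 0.0691). Nfu_g_1_003041 had 35.9, 18.3 and 27.4 CPM in females and 5.11, 15.4 and 14.1 CPM in males (1.24, adjusted p = 0.00471), with 0 counts in every embryo. *MEP1B* had 8.88, 11.4 and 11.2 CPM in females and 5.56, 2.51 and 7.30 CPM in males (0.99, adjusted p = 0.0246). For these 3 genes the females did not overlap the males. *MEP1B* went against most of its list. Of 27 gut genes tested at 3 dph, 2 were female-higher and 14 male-higher, against 13.7% and 5.19% of all genes. Their median log2 fold change was -0.52. Nfu_g_1_009634 (0.97, adjusted p = 0.0237) and Nfu_g_1_012082 (1.48, adjusted p = 0.0284) completed the 5, the last of them named after its values were seen.

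At 10 dpf the call depended on whether the replicate numbers entered the fit. Of 124 members with an adjusted p, 0 were DEGs, against 0.228% of all genes (0.173% female-higher and 0.0544% male-higher). An unadjusted p under 0.05 was found for 32 of 199 fitted members and for 1858 of 25130 fitted genes. Without male replicate 1 it was found for 7 of 197 members and for 1005 of 25001 genes. The members' median log2 fold change was -0.74 with that library and -0.09 without it. edgeR called 0 members and 0.0% of all genes, with 13 of 125 members and 1341 of 20160 genes at an unadjusted p under 0.05. Female and male libraries of the same number deviated together at this stage. This pairing was found in these same counts and is not stated by the labels, so the calls that rest on it are a description. The fit with the block was not repeated without male replicate 1. With the replicate number as a block 9 of 94 members with an adjusted p were DEGs, against 0.746% of all genes. All 9 were male-higher, against 0.224% of all genes, while 0.522% of all genes were female-higher. Among them were *hbbe1.1* (adjusted p = 0.0390 with the block), *hbae1* (0.0143), *hbbe2* (0.0361), *and3* (0.0189), *zgc:153704* (0.0395) and *zgc:101810* (0.0390). The names of all 6 came from the table ordered by the 10 dpf sex comparison, so they are examples and no independent sign of which genes differ there. Without the block there were 3 male-higher members when male replicate 2 was left out, against 0.307% of all genes. There were 8 without male replicate 3, against 1.37%, and 0 without male replicate 1, against 0.036%. The *hbae1* level of 165 CPM in male replicate 1 stood beside 14.5 to 46.0 CPM in the other embryos.

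At 0 dph, 14 of 185 members were DEGs, against 3.31% of all genes, with 5 female-higher against 2.11% of all genes and 9 male-higher against 1.2% of all genes. edgeR called 1 of 178, the male-higher Nfu_g_1_017355 (adjusted p = 0.0496), against 0.165% of all genes (0.13% female-higher and 0.035% male-higher). The female-higher side changed with single libraries. It held 5 members without male replicate 1, 8 without male replicate 2 and 2 without male replicate 3, against 2.1%, 1.34% and 1.55% of all genes. The male-higher side held 9, 8 and 9 members, against 3.01%, 0.502% and 0.604%. Leaving out either female library leaves 1 female, so only the median fold change is given here for those fits. The members' median log2 fold change at 0 dph was 0.22, with 0.55 without female replicate 1 and -0.34 without female replicate 2. The 5 female-higher members with all libraries were Nfu_g_1_004056, Nfu_g_1_018044, Nfu_g_1_011088, Nfu_g_1_017480 and Nfu_g_1_003357, named after their values were seen. No member passed as male-higher at both trunk stages. Nfu_g_1_011088 had opposite calls, with a log2 fold change of -0.78 at 3 dph (adjusted p = 0.0378) and 1.68 at 0 dph (adjusted p = 0.0253).

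Whether the rise from 0 to 3 dph differed between the sexes was tested as an interaction of sex and age in 1 DESeq2 fit over the 11 trunk libraries. The rise had a median of 1.81 in females and 2.31 in males, and it was larger in males for 143 of the 200 members (71.5%, against 60.4% of all genes). Without female replicate 2 of 0 dph it was larger in males for 116 members (58.0%, against 62.1% of all genes), so the members then lay below the share of all genes. The interaction was called for 29 members, against 8.73% of all genes. For 8 the rise was larger in females, against 6.25% of all genes, and for 21 it was larger in males, against 2.48%. edgeR called 7 of the 8 and 9 of the 21 and no other member, against 3.04% and 1.1% of all genes (4.14% in either direction). Leaving out either female library of 0 dph leaves 1 female there, so only the median interaction is given here for those fits. The median interaction of the members was -0.43 with all libraries. It was 0.09 without female replicate 2 of 0 dph and -0.72 without female replicate 1 of 0 dph. The rule's 0 dph mean held 3 males and 2 females, so these counts and medians are not independent of it.

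**Figure D4:**
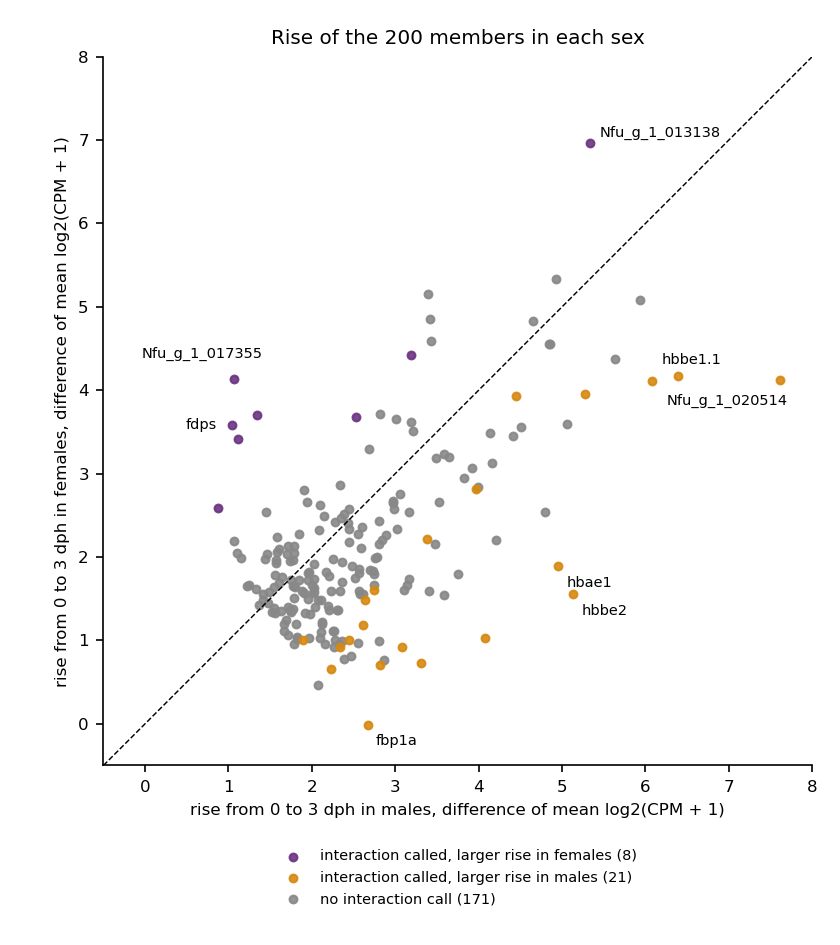
Rise of each member from 0 to 3 dph, as the difference of mean log2(CPM + 1), in females (vertical) and in males (horizontal); the dashed line marks equal rises. Most points lie below the line, the 8 called members with a larger rise in females lie clearly above it, and *hbae1* and *hbbe2* are among the 21 with a larger rise in males.

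The 8 members with a larger rise in females were all lower in females at hatching. The interaction contains the 0 dph fold change of the same libraries, so this describes the 8 and is no further support for them. All 8 were male-higher DEGs at 0 dph, against 1.2% of all genes, and 0 of the 8 were DEGs at 3 dph. Every male library of 0 dph lay above both females in each, an order whose share over all genes is not given here. *fdps* had 125, 113 and 124 CPM in females and 105, 146 and 125 CPM in males at 3 dph, against 6.23 and 13.4 CPM in females and 48.1, 75.4 and 59.0 CPM in males at 0 dph. Its log2 fold change, female over male, was -0.08 ± 0.15 at 3 dph (95% interval -0.38 to 0.22, adjusted p = 0.762) and -2.80 ± 0.40 at 0 dph (adjusted p = 1.79e-09). Its interaction was 2.74 ± 0.42 (adjusted p = 2.74e-08, and 0.00865 with edgeR). In the embryos *fdps* had 28.7, 36.8 and 30.9 CPM in females and 19.9, 29.4 and 41.4 CPM in males, so the sexes overlapped there and both 0 dph females lay below every embryo.

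Nfu_g_1_017355 had the smallest adjusted p of the interaction (3.35 ± 0.45, adjusted p = 9.15e-11). It had 81.8, 104 and 75.7 CPM in females and 98.3, 111 and 73.2 CPM in males at 3 dph, against 2.34 and 6.33 CPM in females and 45.7, 44.1 and 42.0 CPM in males at 0 dph. The males of 0 dph thus lay close together and far above both females, and the sexes overlapped at 3 dph. Nfu_g_1_018583 (2.37 ± 0.41, adjusted p = 1.4e-06) had 20.1 and 46.0 CPM in females and 165, 191 and 170 CPM in males at 0 dph. At 3 dph it had 293, 365 and 347 CPM in females and 376, 378 and 383 CPM in males, the only one of the 8 whose sexes did not overlap at 3 dph. In the ovary it had 1.08 CPM.

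The other 5 were named after their values were seen. At 0 dph, Nfu_g_1_010435 had 7.15 and 12.7 CPM in females and 29.1 to 39.7 CPM in males, and Nfu_g_1_016487 had 5.37 and 16.6 CPM in females and 45.7 to 58.5 CPM in males. Nfu_g_1_013138, at rank 4, had 0.915 and 1.24 CPM in females and 3.30 to 12.1 CPM in males. Nfu_g_1_018127 and Nfu_g_1_008031 showed the same order with smaller differences, -2.01 ± 0.47 and -1.25 ± 0.35 on the log2 scale. At 3 dph the fold changes of these 5 lay between -0.36 and 0.17. With each of the 11 libraries left out in turn, 7 of the 8 kept the interaction call. Of the other 9 genes of lipid and sterol synthesis with a symbol, 0 were DEGs at 0 dph, and the fatty acid synthase *fasn* was male-higher (log2 fold change -0.86, adjusted p = 0.000254) and 1 copy of the elongase *elovl6l* female-higher (3.51, adjusted p = 1.92e-36) at 3 dph. The ninth male-higher member at 0 dph, Nfu_g_1_007317, had 39.7 and 70.8 CPM in females and 128, 218 and 267 CPM in males, and its interaction was not called.

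**Figure D5:**
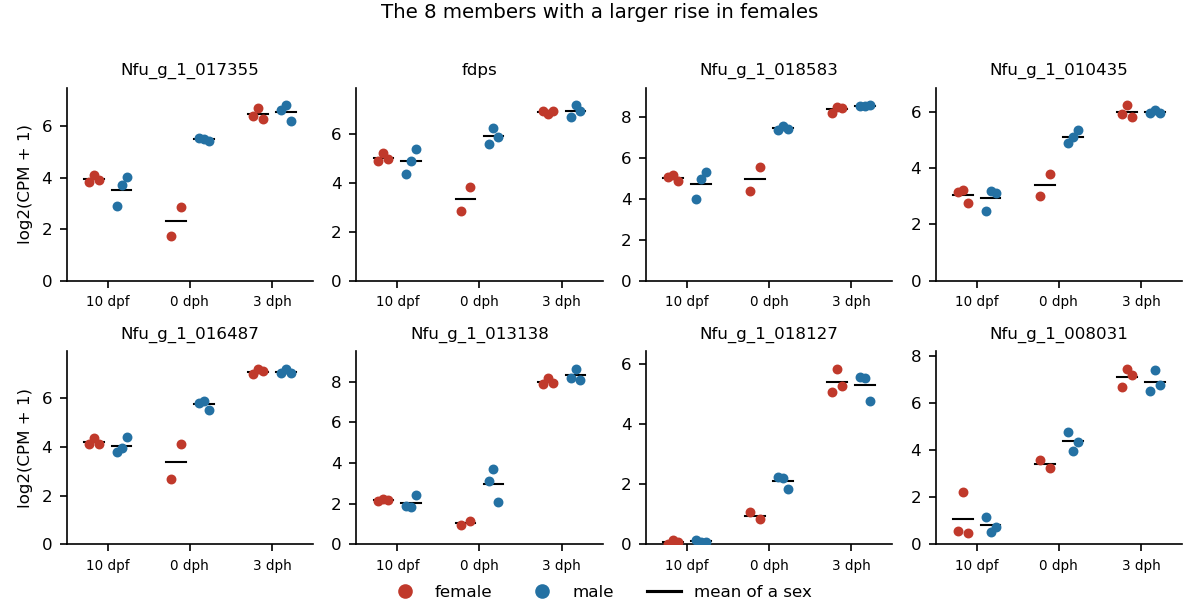
Level, as log2(CPM + 1), of the 8 members with a larger rise in females, by stage, with females left of males; black lines are means of a sex. At 0 dph the 3 males lie above the 2 females in every panel, while at 3 dph 7 of the 8 panels show overlapping sexes.

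The 21 members with a larger rise in males depended more on 1 library. For 16 of them female replicate 2 was the highest of the 5 libraries of 0 dph, and 3 of the 21 kept the call with each library left out. The globins were among them, with an interaction of -2.10 ± 0.66 for *hbbe1.1* (adjusted p = 0.0236), -3.23 ± 0.76 for *hbae1* (adjusted p = 0.000986) and -4.12 ± 1.04 for *hbbe2* (adjusted p = 0.00241). In female replicate 2 of 0 dph *hbbe2* stood 9.21 times and *hbae1* 3.98 times as high as in replicate 1, and the highest adjusted p with a library left out was 0.253 for *hbbe1.1*, 0.117 for *hbae1* and 0.173 for *hbbe2*. *fbp1a* (-2.72 ± 0.74, adjusted p = 0.00614) and the rank 1 gene Nfu_g_1_020514 (-4.48 ± 1.36, adjusted p = 0.017) lost the call likewise, with a highest adjusted p of 0.263 for *fbp1a* and 0.454 for Nfu_g_1_020514. Of the 21, 9 were male-higher DEGs at 3 dph, against 5.19% of all genes, and 0 were male-higher by fold change at 0 dph. Both fold changes enter the interaction, so these counts only describe the 21.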

How the data were processed

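The deposited values are counts of reads per gene, which the authors made by filtering reads, mapping them with STAR to the *N. furzeri* genome and counting with summarizeOverlaps; STAR and bcl2fastq 1.8.4 are named in the submitters' processing notes, and the strand setting is not given in the sources used here. Counts without strand cannot be split between overlapping genes. The 19 libraries held 11717979 to 31493908 counts, and 999 of 26740 genes had no count. The members and gene lists were chosen with earlier results of these data known. CPM was the count divided by the library total, and L was log2(CPM + 1). Symbols are zebrafish-derived names that the study pairs with identifiers, held here for part of them: 1898 from a table in identifier order and 773 from one ordered by the study's test between the sexes at 10 dpf. The gene lists were drawn from these symbols, so their counts are not independent of that comparison, and 0 identifiers matched RefSeq.

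Sexes were compared per stage with the DESeq2 Wald test (DESeq2 1.42.0, R 4.3.3) and Benjamini-Hochberg adjustment over all genes, with an adjusted p under 0.05, and the interaction in 1 fit over the trunks. The scripts were tested on simulated data. Alternatives were edgeR 4.0.16 quasi-likelihood, TMM factors, a minimum of 10 counts, no independent filtering, a replicate block and leaving out each library. Replicates are separate samples in the labels, which do not say whether they come from separate animals, so p-values measure the spread between these samples. At 10 dpf, libraries of females and males with the same number deviated together (r = 0.422, 0.179 and 0.539 over 20262 genes), a pairing that comes from the data; the other stages did not pass this check.

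Genes are named by a rule: the 10 members of highest rank, the 5 with the highest mean CPM at 3 dph, the 4 female-higher and 4 male-higher members with the smallest adjusted p at 3 dph, the 3 with the smallest adjusted p of the interaction, and every member with a symbol. No sequences are shown.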

Additional observations from a re-analysis of the deposited data

Results flagged for a closer look

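The rise from 0 to 3 dph differed between females and males for 29 of the 200 members, against 8.73% of all genes, by the interaction term of sex and age. For 21 of them the rise was larger in males and for 8 in females, and without female replicate 2 of 0 dph the counts were 6 and 15. The fit without that library had 1 female left at 0 dph, so nothing follows from its counts. With all libraries, the smallest adjusted p belonged to Nfu_g_1_017355, with an interaction of 3.35 on the log2 scale. It was followed by *fdps* (Nfu_g_1_001062) with 2.74 and Nfu_g_1_018583 with 2.37. In all 3 the rise was larger in females.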

How the results depend on the processing

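A list cut at 100 members holds 100 of the 200 genes by construction. A pseudocount of 10 gave a median rise of 1.41. At 3 dph, edgeR called 17 members (1 female-higher, 16 male-higher), 1 fit over 17 libraries 13 (0 and 13; 6.53% of members against 10.2% of all genes), and a further 2-fold threshold 15 (2 and 13; 1517 of 21772 over all genes, 1281 and 236 by direction). With each library left out, the count ranged from 18 to 38, against 12.5% to 19.8% of all genes. The female-higher ranged from 1 to 6 and the male-higher from 16 to 32, against 10.1% to 13.2% and 2.18% to 6.57%. At 0 dph, edgeR called 1 member (0 female-higher, 1 male-higher), and the female-higher count ranged from 0 to 14 with each library left out. Both ends of that 0 dph range came from fits with 1 female left, so nothing follows from them. With a male library left out, the female-higher count was 2 to 8, against 1.34% to 2.1% of all genes. At 10 dpf, the replicate block, a pairing found in these same counts, gave 9 members, 9 of them male-higher, against 0.224% of all genes. Without the block, leaving out libraries gave 0 to 8, all male-higher, against 0.016% to 1.37% of all genes. For the interaction, edgeR called 16 (9 with a larger rise in males). With each library left out, the count ranged from 21 to 51, from 7 to 15 with a larger rise in females and from 6 to 41 with a larger rise in males. Every end of these interaction ranges but the 7 came from a fit with 1 female left at 0 dph, so nothing follows from those ends. With any other library left out, the count was 23 to 36, against 5.81% to 14.7% of all genes. The causes were not tested. Without female replicate 2 of 0 dph the balance turned, with 1 female left there. The members' median interaction was 0.09 against -0.43, and their median log2 fold change at 0 dph was -0.34 against 0.22. Without female replicate 1 of 0 dph the members' median log2 fold change at 0 dph was 0.55.

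At 0 dph (r = -0.0871 and -0.196) and 3 dph (r = -0.193, 0.187 and 0.000213) the numbers did not pair the samples. With the replicate block 35 members (17.5%) were DEGs at 3 dph, against 11.9% of all genes. Of these, 4 were female-higher and 31 male-higher, against 9.42% and 2.49% of all genes. The members' share was thus above that of all genes with the block and below it without. Among the named genes, 336 values under alternatives kept their direction and their side of the threshold and 90 kept only the direction. Detection limits the lowest members, of which 30 had a mean under 10 CPM at 3 dph.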
